A study of Mus musculus with 9 samples.

Results

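The 8 genes described here encode inhibitors of receptor tyrosine kinase signalling: the Sprouty genes Spry1, Spry2, Spry3 and Spry4, the Sprouty-related genes Spred1, Spred2 and Spred3, and Errfi1. They were taken by symbol from both comparison tables that the authors deposited, each of which lists 24015 genes. All 8 were listed, and 7 had reads. Total RNA was sequenced from the microdissected dentate gyrus, a hippocampal region made up mainly of granule neurons, of adult C57BL/6 mice 8 weeks old. Each library is 1 mouse and each of E0, E1 and E4 has 3, and the series asks how neuronal activation alters RNA and chromatin in the adult brain. The labels state neither a time unit for E0, E1 and E4 nor an agent or a sex. As background to the study, E0 are unstimulated mice, and E1 and E4 are mice taken 1 h and 4 h after electroconvulsive stimulation, a seizure-inducing treatment. No group carries a transgene or deletion in the labels, which name the series WT. The tissue is whole, so each value is a mixture of granule neurons with interneurons, glia and vessels, and a change in the number of cells of a type cannot be told apart from a change in RNA per cell.

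Growth factors such as EGF, FGF and BDNF bind receptor kinases on the cell surface, which load Ras with GTP and start the Raf, Mek and Erk kinase cascade. Sprouty proteins are switched on by that cascade and block it between receptor and Raf. Spred proteins bring neurofibromin, which ends Ras signalling, to the membrane, and the protein of Errfi1, also called Mig6, binds the kinase domain of EGF receptors and shuts it off. In cultured neurons Spry2 is known to be induced by BDNF, and mice without Spred1 have deficits in hippocampal learning.

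Promoter sequence from the RefSeq promoter table (build GRCm38.p6) was used for 6 of the 8 genes, as 7 promoters, since Errfi1 has a pair of start sites there. Spry3 had no window there. The search left out the chromosome of Spry4, so the promoter of Spry4 was not examined. The 250 bases before the start are printed, 5′ to 3′ on the strand of the gene, for both genes with the highest rise and for the gene that fell. They are the second start of Errfi1 (chr4:150854820-150855069, plus strand, within the annotated span of the gene), Spry2 (chr14:105896820-105897069, minus strand) and Spry1 (chr3:37639697-37639946, plus strand). Capitals mark a match to the cAMP response element (CRE, TGACGTCA), the site bound by the activity-regulated factor CREB.
Errfi1, second start: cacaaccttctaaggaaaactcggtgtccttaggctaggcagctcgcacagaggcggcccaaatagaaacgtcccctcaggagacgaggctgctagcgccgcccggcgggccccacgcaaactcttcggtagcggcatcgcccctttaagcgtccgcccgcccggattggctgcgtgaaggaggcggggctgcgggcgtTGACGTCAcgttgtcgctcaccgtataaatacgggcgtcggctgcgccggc
Spry2: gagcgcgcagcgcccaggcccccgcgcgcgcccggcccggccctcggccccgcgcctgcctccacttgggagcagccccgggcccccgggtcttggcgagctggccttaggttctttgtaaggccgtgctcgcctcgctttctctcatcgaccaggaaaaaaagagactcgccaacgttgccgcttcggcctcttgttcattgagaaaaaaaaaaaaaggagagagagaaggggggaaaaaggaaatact
Spry1: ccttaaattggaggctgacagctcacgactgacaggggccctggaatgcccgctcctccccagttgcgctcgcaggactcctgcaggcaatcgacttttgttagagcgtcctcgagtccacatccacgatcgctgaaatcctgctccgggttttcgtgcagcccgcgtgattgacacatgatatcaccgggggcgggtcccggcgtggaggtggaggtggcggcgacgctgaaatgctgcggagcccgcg

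The full CRE lay 51 to 44 bases before the second start of Errfi1. Its letters read the same on both strands, so it is 1 site, and it also holds the shorter CRE core TGACG on each strand. The full CRE occurs in 1.55% of the 32851 promoter windows of this length. None of the other 6 windows held it. Spred2 held the core TGACG 51 to 47 bases before its start on the other strand, a motif found in 17.8% of windows. Searched on both strands, AP-1 (TGANTCA, in 6.75% of windows), EGR (GCGNGGGCG, 4.70%), ETS (CCGGAAGT, 2.88%) and the serum response element (1.47%) matched in none of the 7 windows. GC content was 64.8% in the window of the second start of Errfi1 and 62.4% in those of Spry2 and Spry1, beside a median of 52.4% over all windows. In the windows not printed it was 38.0% at the first start of Errfi1, 55.6% for Spred3, 56.0% for Spred2 and 70.8% for Spred1. A match is a run of letters and was not tested for binding, and which start of Errfi1 was used in this tissue was not measured here.

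For each gene the tables hold a mean count, a log2 fold change, its SE (standard error) and a DESeq2 adjusted p, and no values per mouse. Reads per library were reconstructed from them as described under the processing. For each of the 7 genes with reads, exactly 1 set of whole reads matched the values of both tables. The E0 reads were required to be the same in each. Values per library are given as normalised reads, meaning reads divided by a size factor on a scale shared by all 9 libraries. Libraries of a group are ordered from the deepest to the shallowest. They could not be tied to the replicate numbers of the labels. Reads in genes came to about 6140000 to 10960000 per library in E0, 1940000 to 4760000 in E1 and 10020000 to 13550000 in E4, so E1 values rest on the fewest reads. As a check of activation, Fos stood at 4.64 ± 0.21 (log2 fold change ± SE) in E1 and 0.51 ± 0.30 in E4, and Arc at 6.65 ± 0.14 and 3.41 ± 0.33, in the authors' deposited tables.

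In E1 against E0, 6 of the 7 genes with reads were raised and 1, Spry1, was lowered. Spry2 and Errfi1 had the highest log2 fold changes of the 7, followed by Spry4, Spred2, Spred3 and Spred1. A gene was called raised or lowered where the adjusted p of the authors was below 0.05, which held for 35.5% of the 15660 genes tested in E1, 20.6% raised and 15.0% lowered. The median log2 fold change of the 7 genes was 1.04, beside 0.02 over all genes tested. In E4 against E0, 4 of the 7 were raised (Spry2, Spred2, Spred3 and Errfi1), none was lowered and 3 were not called. There 39.0% of 14455 genes were called, 20.7% raised and 18.3% lowered, and the medians were 0.51 for the 7 genes and -0.01 for all genes tested. Groups whose libraries did not overlap were found for all 7 genes in E1 against E0 and for 5 in E4 against E0. Reads were reconstructed for these genes only, so the share of all genes without overlap is not known here and nothing is read from these counts. All comparisons against E0 use the same 3 E0 libraries.

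**Figure D1:**
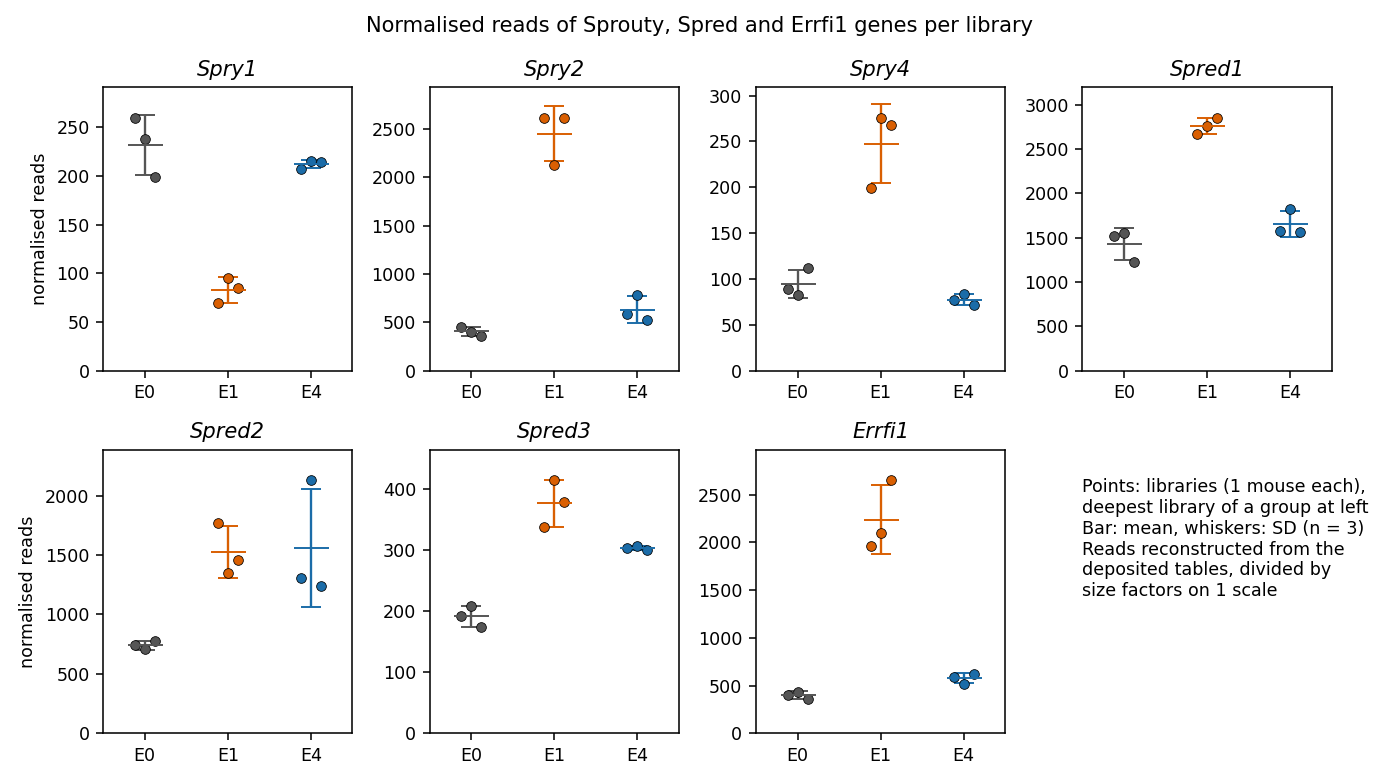
Normalised reads (vertical axes, each from 0) of the 7 genes with reads in each library of E0, E1 and E4, with the mean and SD of 3 libraries. The E1 libraries of Spry2 and Errfi1 stand at 1962 or above while no E0 or E4 library of these genes exceeds 786.1, the E1 libraries of Spry1 lie below the other groups, and the E4 and E1 libraries of Spred2 overlap.

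Spry2, an adaptor-binding Sprouty that is phosphorylated on a tyrosine once receptors are active, had the highest rise. Its normalised reads were 451.4, 404.9 and 361.2 in the E0 libraries, 2619, 2130 and 2615 in E1 and 581.7, 786.1 and 529.5 in E4. The lowest E1 library was 4.72 times the highest E0 library, and every E4 library lay between the E0 and the E1 libraries. The means were 405.8 ± 45.1 (SD, n = 3) in E0, 2454 ± 281 in E1 and 632.4 ± 136 in E4. The authors' deposited table for E1 gives a log2 fold change of 2.55 ± 0.13 (SE, DESeq2 adjusted p = 1.3e-83), which ranks Spry2 454th from the top among the 15660 genes tested. For E4 the authors' deposited table gives 0.62 ± 0.15 (adjusted p = 0.00013). Of the E4 libraries the second stood above the others, and the log2 fold change ranged from 0.43 to 0.72 with 1 library left out at a time.

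Spry4, whose protein restrains Erk activation downstream of several receptors, was the least abundant Sprouty with reads in E0. It had 89.2, 82.0 and 112 normalised reads in E0, 198.8, 275.9 and 268.4 in E1 and 77.2, 83.3 and 71.5 in E4. All E1 libraries were above all E0 libraries, whereas the E4 libraries overlapped with E0. These levels rest on few reads: the shallowest E1 library held 54 (95% exact Poisson interval 40.6 to 70.5 reads, which covers counting error only). The log2 fold change in the authors' deposited table was 1.32 ± 0.24 in E1 (DESeq2 adjusted p = 2.1e-07). In E4 it was -0.26 ± 0.21 (adjusted p = 0.371) in the authors' deposited table, with no call.

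Spry1, a Sprouty best known for limiting GDNF and FGF signals in the developing kidney, was the only one of the 7 with lower reads in E1. Its normalised reads were 259.7, 237.6 and 198.7 in E0, 69.0, 94.8 and 84.5 in E1 and 207.2, 215 and 214.5 in E4. The lowest E0 library was 2.09 times as high as the highest E1 library, and the E4 libraries lay within the range of E0. The E1 libraries held 34, 33 and 17 reads of Spry1, and the upper Poisson limit of the shallowest, 135.3 normalised reads, was still below the lowest E0 library. The authors' deposited table gives a log2 fold change of -1.42 ± 0.25 in E1 (DESeq2 adjusted p = 2.2e-07), the 117th from the bottom of the genes tested. For E4 the authors' deposited table gives -0.14 ± 0.15 (adjusted p = 0.524). The means were 82.8 ± 13.0 (SD, n = 3) in E1, beside 232 ± 30.9 in E0 and 212.2 ± 4.35 in E4. Spry1 lies at chr3:37639947-37644598 on the plus strand of GRCm38 and overlaps Gm42922, an unclassified transcript on the other strand. Whether the counting used strand is not given in the sources used here.

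Spry3 was listed at 0 in both tables, so no test was made of it. The reconstruction gives 0 reads in all 9 libraries. A count of 0 was taken to allow up to 3 reads, a one-sided limit and so lower than the upper end of the two-sided intervals above, or 2.14 normalised reads in the deepest library and 14.9 in the shallowest, for counting error only.

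**Figure D2:**
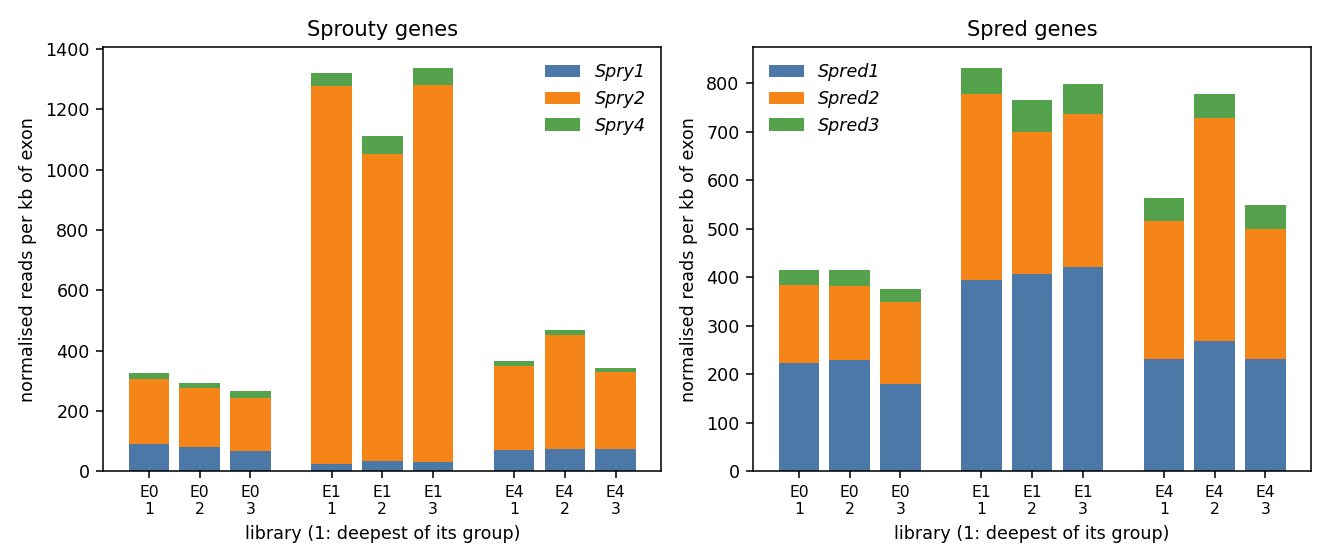
Normalised reads per kb of exon (vertical axes) of Sprouty genes and Spred genes, stacked for each of the 3 libraries of E0, E1 and E4. The summed Sprouty level is 1111 or more in each E1 library and 468.2 or less in every other library, with Spry2 as 93.5% of it in E1, and among the Spred genes the Spred2 share is highest in E4.

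Per kb of exon, which allows levels of different genes to be set side by side, the 3 Sprouty genes summed to 294 ± 29.7 normalised reads per kb in E0 (SD, n = 3), 1257 ± 126 in E1 and 392 ± 66.8 in E4. Spry2 made up 66.1% of that sum in E0, 93.5% in E1 and 76.9% in E4. The share of Spry1 was 27.1% in E0, 2.30% in E1 and 18.9% in E4, with no overlap between the groups (25.8% to 27.9%, 1.80% to 2.94% and 15.8% to 21.6%). Spry4 held 6.85%, 4.20% and 4.19%, with the E0 libraries (5.78% to 8.89%) above those of E1 and E4, which overlapped. The Sprouty RNA of E1 was therefore almost all Spry2, although Spry4 had also risen. Exon lengths were the union of all annotated exons in GRCm38, and a gene whose main isoform is shorter would have a higher level than given here.

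Among the Spred genes, all 3 were raised in E1 and 2 in E4. Spred1, whose human counterpart is mutated in Legius syndrome, had 1515, 1551 and 1224 normalised reads in E0, 2674, 2762 and 2853 in E1 and 1573, 1818 and 1569 in E4. The E1 libraries were above all others, while the lowest E4 library exceeded the highest E0 library by a ratio of 1.01. The log2 fold change in the authors' deposited table was 0.93 ± 0.11 in E1 (DESeq2 adjusted p = 7.1e-15). In E4 it was 0.20 ± 0.11 (adjusted p = 0.13) in the authors' deposited table, not called.

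Spred2, which inhibits the same step and is best known from blood cell progenitors and bone growth, had 739.3, 705.3 and 777.6 normalised reads in E0, 1773, 1348 and 1461 in E1 and 1310, 2129 and 1241 in E4. Both later groups were above E0 in every library and overlapped with each other. The authors' deposited table gives 1.04 ± 0.13 in E1 (DESeq2 adjusted p = 2.5e-14). For E4 the authors' deposited table gives 0.99 ± 0.24 (adjusted p = 0.00028). The wider SE in E4 goes with 1 library, the second in depth, which stood above the others (coefficient of variation 31.7%, beside 4.88% in E0). In a refit without that library the log2 fold change was 0.71 (Wald test, unadjusted p = 0.0083). That p was below 0.0195, the largest unadjusted p among the genes called in E4.

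Spred3, which lacks the working Kit-binding domain of the other Spred proteins, is the least abundant of them. Its normalised reads were 192.6, 207.8 and 173.5 in E0, 336.7, 413.9 and 377.8 in E1 and 302.3, 305.9 and 300.5 in E4. The 3 groups did not overlap: E1 was highest, E4 intermediate and E0 lowest. The authors' deposited table gives 0.94 ± 0.18 in E1 (DESeq2 adjusted p = 3.3e-06). For E4 the authors' deposited table gives 0.64 ± 0.14 (adjusted p = 4.4e-05). Spred3 (chr7:29158829-29170411, minus strand, GRCm38) overlaps Ggn, a gene on the other strand with a mean count of 3.21 in the E1 table and 5.39 in the E4 table.

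Summed per kb, the Spred genes stood at 402 ± 21.9 in E0, 799 ± 33.3 in E1 and 630 ± 128 in E4 (normalised reads per kb, SD, n = 3). The shares within that sum overlapped between the E0 and E1 libraries: Spred1 held 52.3% and 51.1%, Spred2 40.1% and 41.3%, and Spred3 7.65% and 7.61%. In E4 the order was turned, with Spred2 at 52.8% and Spred1 at 39.3%. Each E4 library had a Spred2 share of at least 48.99%, above all E0 and E1 libraries, of which the highest reached 46.1%. These shares are descriptions, with no test.

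Errfi1, the EGF receptor inhibitor, had the next highest log2 fold change after Spry2 in E1, and both estimates lie within an SE of each other. It had 402.8, 436.8 and 356.5 normalised reads in E0, 1962, 2101 and 2649 in E1 and 592.4, 515.2 and 617.4 in E4. No groups overlapped, and the lowest E1 library was 4.49 times the highest E0 library. The authors' deposited table gives 2.44 ± 0.14 in E1 (DESeq2 adjusted p = 3.2e-67), rank 488th from the top. For E4 the authors' deposited table gives 0.51 ± 0.12 (adjusted p = 0.00019). Means were 398.7 ± 40.3 (SD, n = 3) in E0, 2237 ± 364 in E1 and 575 ± 53.3 in E4. Errfi1 (chr4:150853919-150868892, plus strand, GRCm38) overlaps the antisense gene 1700045H11Rik, which is listed at 0 in both tables.

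**Figure D3:**
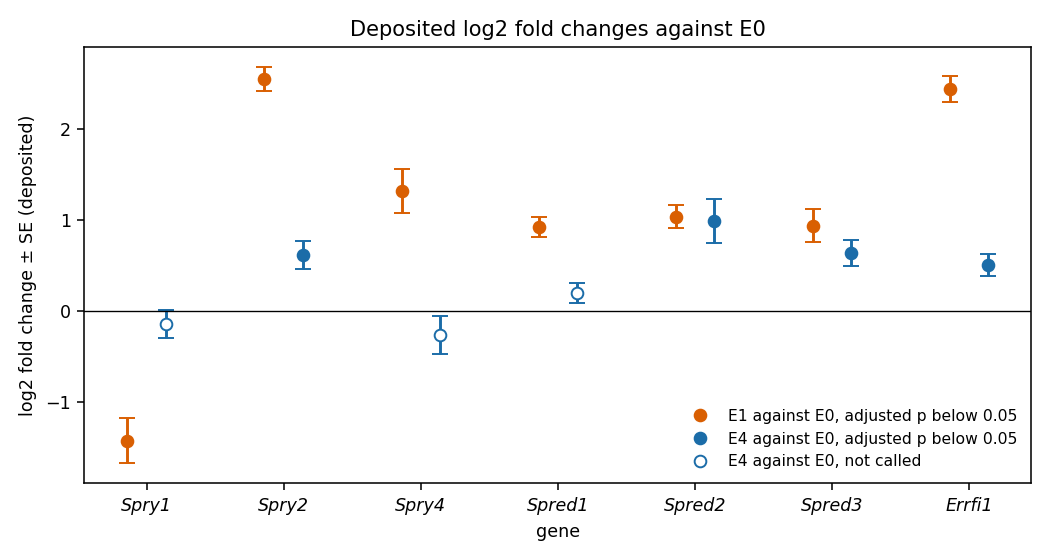
Log2 fold changes against E0 with their SE from the authors' deposited tables (vertical axis) for the 7 genes with reads, E1 and E4 side by side, with open points for genes not called. All 7 are called in E1, where Spry1 alone is below 0, and 4 in E4, where Spry2 and Errfi1 stand at 0.62 and 0.51.

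When the test asked for an absolute log2 fold change above 0.5 rather than above 0, 0 of the 7 passed in E4 and 6 of the 7 in E1, where Spred3 did not pass. Of the raised genes in E4, Spred2 had the highest log2 fold change in the authors' deposited table, 0.99, and Errfi1 the lowest, 0.51.

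**Figure D4:**
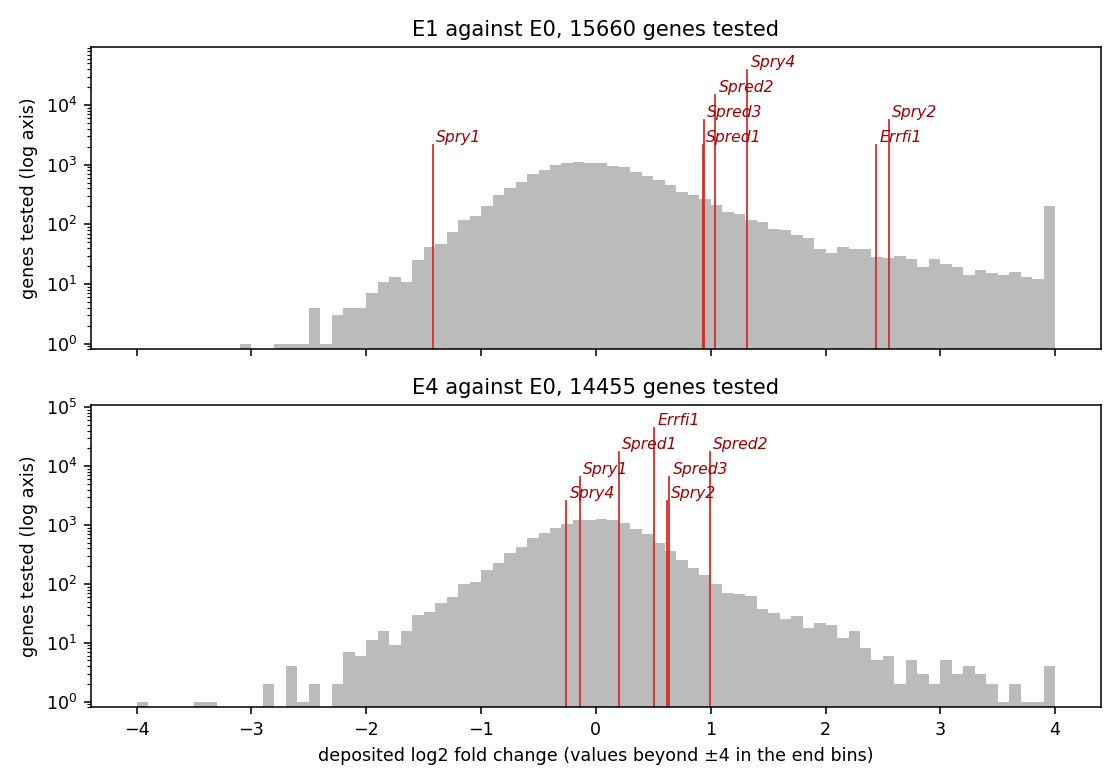
Number of genes tested (vertical log axis) by deposited log2 fold change (horizontal axis) in E1 and in E4 against E0, with red lines at the 7 genes with reads. In E1 Spry2 and Errfi1 lie in the right tail and Spry1 in the left, and in E4 all 7 lie between -0.26 and 0.99.

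The comparison of E4 with E1 asks which of these genes had changed between the later groups. The difference of both log2 fold changes was tested against its SE over 12766 genes, of which 36.7% differed, 17.7% higher and 19.0% lower in E4. Of the 7 genes, 4 were lower in E4 (Spry2, Spry4, Spred1 and Errfi1), 1 was higher (Spry1) and 2 were not called (Spred2 and Spred3). Spry2 differed by -1.94 ± 0.19 (E4 minus E1, log2, SE; adjusted p = 2.7e-21 from the DESeq2 estimates) and Errfi1 by -1.92 ± 0.19 (adjusted p = 3.7e-23). Spry4 differed by -1.58 ± 0.32 (adjusted p = 6.6e-06) and Spred1 by -0.73 ± 0.16 (adjusted p = 2.7e-05). Spry1 differed the other way, by 1.29 ± 0.30 (adjusted p = 9.4e-05). The mean of E4 was 0.258 of that of E1 for Spry2, 0.257 for Errfi1, 0.312 for Spry4, 0.599 for Spred1 and 2.56 for Spry1. The E4 libraries lay apart from the E1 libraries in these 5 genes, and also in Spred3. The share of all genes that lie apart is not known here, so nothing is read from this. For Spred2 the difference was -0.05 ± 0.28 (adjusted p = 0.908) and for Spred3 -0.30 ± 0.23 (adjusted p = 0.33). The SE of Spred2 leaves room for a change either way, and the E4 libraries of Spred3 were all below its E1 libraries.

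The order of the genes by level per kb also moved. Neighbours are called within their spread where the means differ by less than the sum of both SDs. In E0 Spred1 (211 ± 26.4 normalised reads per kb, SD, n = 3) and Spry2 (194.5 ± 21.6) led and lay within their spread. Spred2 (160 ± 7.83), Errfi1 (111 ± 11.3), Spry1 (79.8 ± 10.6), Spred3 (30.8 ± 2.76) and Spry4 (19.9 ± 3.29) followed. In E1 Spry2 (1176 ± 135) led, then Errfi1 (625 ± 102), Spred1 (407 ± 13.2) and Spred2 (331 ± 47.6). Spred3 (60.5 ± 6.21) and Spry4 (52.1 ± 8.94) came next, within each other's spread, and Spry1 (28.5 ± 4.48) was last. In E4 Spred2 (338 ± 107), Spry2 (303 ± 65.0) and Spred1 (244 ± 21.0) led, neighbours within their spread, before Errfi1 (160.5 ± 14.9), Spry1 (73.0 ± 1.50), Spred3 (48.7 ± 0.445) and Spry4 (16.3 ± 1.25). Spry1 was thus last of the 7 in E1 and ahead of Spred3 and Spry4 in E0 and E4.

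Other genes of the pathway were counted by lists chosen with earlier results of these data known, and are given against the background shares above. Nearest in function are other inhibitors that act on receptor kinases or on Erk. In E1 7 of 15 were raised, 1 lowered and 7 not called (median log2 fold change 0.26), and in E4 4 of 14 were raised, 1 lowered and 9 not called (median 0.15). The Erk phosphatase gene Dusp6 stood at 2.52 ± 0.17 in E1 and 0.25 ± 0.15 in E4 in the authors' deposited tables, the second value not called. Dusp4, a nuclear phosphatase of the same family, stood at 2.42 ± 0.15 and 0.67 ± 0.28 in the authors' deposited tables, called in both. Dusp5, a nuclear Erk phosphatase, and Socs2, a suppressor of cytokine signalling, had 3.67 ± 0.33 and 2.70 ± 0.30 in E1 in the authors' deposited table. Their E4 values there were 1.25 ± 0.37 and 1.36 ± 0.27 in the authors' deposited table, both called.

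Of 15 genes whose proteins bind or modify Sprouty, 8 were raised in E1, none lowered and 7 not called, and in E4 7 were raised, 3 lowered and 5 not called. Siah2, a ubiquitin ligase for Sprouty, stood at 1.97 ± 0.18 in E1 and 0.18 ± 0.18 in E4 (not called) in the authors' deposited tables. Mknk2, a kinase of the Mnk family, stood at 1.66 ± 0.13 and 0.91 ± 0.11 in the authors' deposited tables, raised in both. Grb2, the adaptor that Sprouty binds, was raised in both, with 0.35 ± 0.12 and 1.49 ± 0.10 in the authors' deposited tables. Ppp2ca, the phosphatase subunit, had 0.51 ± 0.09 and 0.61 ± 0.09 in the authors' deposited tables.

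The EGF family, whose receptors Errfi1 inhibits, had 1 ligand raised, 1 lowered and 6 not called of 8 in E1, and 2, 1 and 4 of 7 in E4. Tgfa, another ligand of Egfr, was lowered in both, with -1.44 ± 0.17 and -0.60 ± 0.13, and Hbegf, a ligand of Egfr, was not called in E1 and raised in E4, with -0.10 ± 0.28 and 0.93 ± 0.18, in the authors' deposited tables. Of the 4 EGF family receptors, 1 was raised in E1 and none was called in E4. Egfr itself stood at 0.13 ± 0.29 and -0.32 ± 0.21 in the authors' deposited tables, not called in either.

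Of 9 FGF ligands tested in E1, 3 were raised, 1 lowered and 5 not called, and of 6 tested in E4, none was raised, 4 were lowered and 2 not called. Fgf10, a ligand of Fgfr2, stood at 1.89 ± 0.20 in E1 and -1.38 ± 0.26 in E4 in the authors' deposited tables, and Fgf9 at 1.19 ± 0.28 and -0.97 ± 0.24. Of the 4 FGF receptors tested, 2 were raised, 1 lowered and 1 not called in E1, and 2 were raised and 2 not called in E4. Fgfr1 stood at 0.48 ± 0.12 and 0.74 ± 0.10, and Fgfr3 at -0.72 ± 0.14 and 0.09 ± 0.10 (the last not called), in the authors' deposited tables. Of 15 other receptor kinase ligands, 9 were raised, 2 lowered and 4 not called in E1 (median 1.09), and 4, 4 and 7 in E4. Bdnf, the neurotrophin whose receptor signals through Ras, had 2.62 ± 0.12 and 0.43 ± 0.12, and Kitl, the ligand of Kit, 2.34 ± 0.11 and -1.11 ± 0.16, in the authors' deposited tables. Pdgfb had 0.61 ± 0.21 and 2.29 ± 0.15, and Pdgfc -0.48 ± 0.37 (not called) and 2.84 ± 0.19, in the authors' deposited tables. Of 14 other receptor kinases, 3 were raised and 1 lowered in E1, and 2 and 1 in E4, with Kit at 1.84 ± 0.19 and 0.04 ± 0.18 in the authors' deposited tables.

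Inside the cell, 8 of 18 adaptors and Ras exchange factors were raised and 1 lowered in E1, and 4 and 2 in E4. Sos1, the exchange factor that Grb2 brings to Ras, stood at 1.28 ± 0.12 and -0.13 ± 0.12 (not called), and Rasgrf2 at -1.06 ± 0.11 and -1.95 ± 0.09, in the authors' deposited tables. Of 9 Ras GTPase activators 2 were raised in E1, and 3 were raised and 3 lowered in E4. The 22 genes of the Ras, Raf, Mek and Erk core had 7 raised, 6 lowered and 9 not called in E1 (median -0.09) and 6, 4 and 12 in E4 (median -0.02), beside backgrounds of 20.6% raised and 15.0% lowered in E1 and 20.7% and 18.3% in E4. Mapk3, which encodes Erk1, stood at -0.55 ± 0.10 and -0.72 ± 0.09, and Braf at 0.82 ± 0.11 and 0.60 ± 0.10, in the authors' deposited tables. Of 12 ETS and other Erk target factors, 6 were raised and 1 lowered in E1, and 2 and 2 in E4. Etv5, a target of FGF signalling, had 1.24 ± 0.13 and 0.01 ± 0.13, the second not called, in the authors' deposited tables. Elk1 stood at -1.47 ± 0.13 and -0.59 ± 0.11, and Etv1 at 0.83 ± 0.19 and -1.10 ± 0.14, in the authors' deposited tables. Ets2 had 0.06 ± 0.12 (not called) and 0.54 ± 0.09 in the authors' deposited tables.

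**Figure D5:**
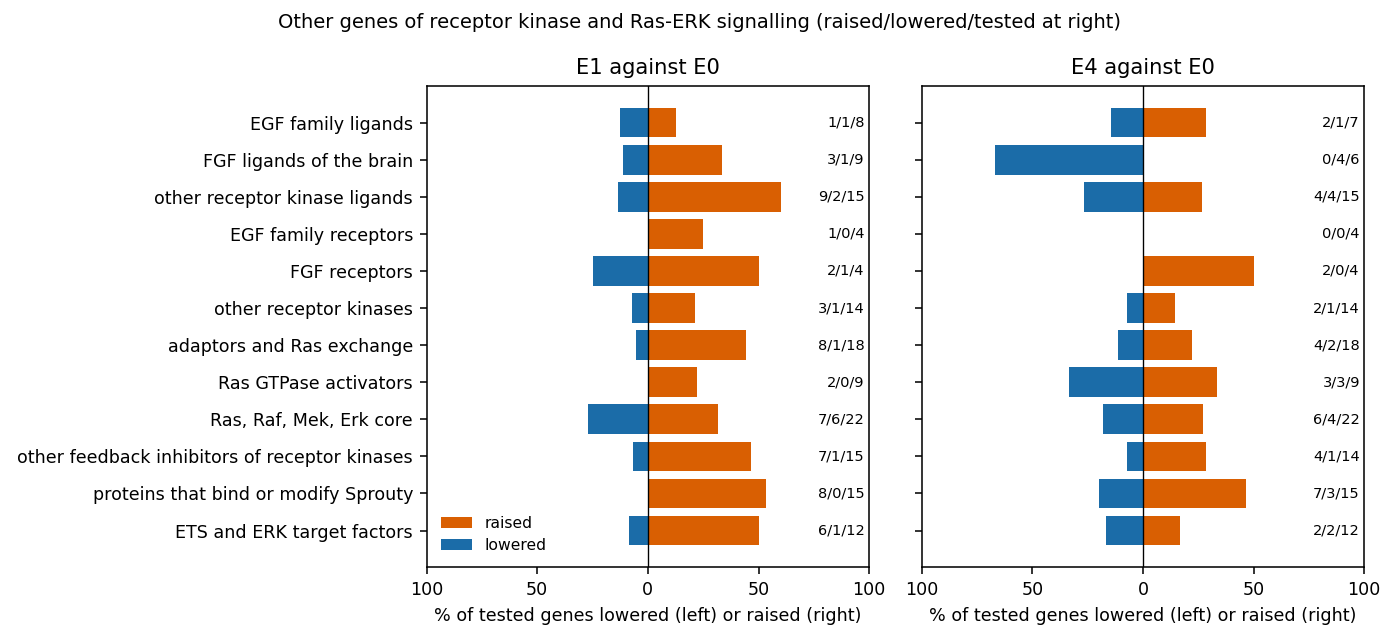
Share of the tested genes of each pathway list that were raised (right of 0) or lowered (left of 0), in percent, in E1 and E4 against E0, with the counts raised, lowered and tested at the right. In E1 the highest share raised is that of the other receptor kinase ligands (9 of 15), and in E4 4 of 6 FGF ligands were lowered.

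The genes nearest to a member in the pair of log2 fold changes were taken for members with an absolute log2 fold change of at least 1. They were sought among 9420 genes that reached a mean count of 50 in each table. Symbols of the Gm, LOC and Rik kinds and those of histone, small RNA and ribosomal protein genes had been left out. Likeness is the distance over the E1 and E4 values, which share E0. Each distance given here was smaller than the SEs of the nearest gene's values, so which genes come out nearest is uncertain. Nearest to Spry2 were Atp7a (distance 0.068), Zfp948 (0.132) and Dusp4 (0.146), and nearest to Errfi1 were Zfp948 (0.028), Coq10b (0.071) and Phf21b (0.073). Spry4 was nearest to Btbd11 (0.042), Maf (0.052) and Elfn1 (0.060), and Spred2 to Ccrn4l (0.018), Bahd1 (0.031) and Ndfip2 (0.057). Spry1 was nearest to Gprin1 (0.051), Ttc30b (0.078) and Bloc1s5 (0.085). Zfp948, a zinc finger gene, was thus among the nearest to both Spry2 and Errfi1, at 2.46 ± 0.22 in E1 and 0.52 ± 0.22 in E4 in the authors' deposited tables.

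Markers of cell types were counted in the same way, against a background of 35.5% called in E1 and 39.0% in E4. The granule neuron markers were all present, with none at 0, including Prox1, C1ql2 and Dsp. In E1 7 of 10 were lowered and 1 raised, and their summed level was 0.63 of that in E0, and in E4 7 were lowered and 3 raised, with a ratio of 0.797. Interneuron markers had 6 of 8 raised in E1 (ratio of sums 1.48) and 1 raised and 1 lowered in E4 (0.988). Astrocyte markers had 6 of 10 lowered in E1 (ratio 0.90) and 1 raised and 1 lowered in E4. Endothelial and pericyte markers had 4 of 10 raised and 1 lowered in E1 (ratio 1.47) and none called in E4, and microglia markers 3 of 8 lowered in E1 (0.709) and 2 in E4 (0.897). These markers were picked after their values were seen: in E1 Gad2 stood at 1.57 ± 0.12, Lhx6 at 1.35 ± 0.22, Flt1 at 1.49 ± 0.30, Man1a at 1.60 ± 0.29 and Dsp at -2.41 ± 0.14 in the authors' deposited table, beside 0.93 to 1.04 for the Spred genes and -1.42 for Spry1. The part of cell makeup in the results was not tested.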

How the data were processed

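RNA of the dentate gyrus of 9 mice in 3 groups was measured, and the tables compared E1 and E4 with the group both share, taken as E0. Reads were aligned with TopHat2 to mm9 and compared with DESeq2, per the submitters' processing notes, without versions. For the counter, annotation and strand the setting is not given in the sources used here. Per the file headers, the deposited signal is the DESeq2 baseMean, a mean of counts divided by size factors. The headers name no samples. That the mean runs over 6 libraries, on a scale of its own in each table, was taken from the reconstruction. The deposited log2 fold changes and SEs, the score (their ratio) and the p-values and adjusted p-values are the authors' DESeq2 estimates, per the file headers. The fold changes are shrunken toward 0.

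Genes with a single read give the size factors, and these give the reads. For low genes 2301 of 2320 (E1 table) and 3237 of 3366 (E4 table) were solved by 1 set of whole reads and none by more than 1. Of the genes solved in both, 1908 of 1908 had the same E0 reads. For the members, sets that matched the mean count had also to match the log2 fold change to 1e-06 with the prior of that table. A test on simulated data recovered 18 of 20 read sets exactly and none wrongly. It covered only members with lower mean counts, so it did not test Spred1 and Spred2 (mean counts 1542 and 1150 in the E4 table). For these, 1005 and 1829 sets matched the mean count of the E4 table, and 1 set each also matched the log2 fold change. The next best set differed from the deposited log2 fold change by 1.7e-05 for Spred1 and 2.7e-06 for Spred2. Reads were reconstructed for the members only, so edgeR over all genes, planned for counts, was not run. Library totals are approximate, and counting intervals are at 95%. Where nothing else is said, calls are the authors' adjusted p below 0.05.

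For E4 against E1, the difference of the log2 fold changes over the root of the sum of squared SEs was compared with a normal distribution, two-sided, with Benjamini-Hochberg adjustment over genes that reached a mean count of 10 in each table. It ignores that both share E0. On simulated data it recovered 61.1% of differences of 1.0 and 91.4% of differences of 2.0, with 1.28% of calls false. The simulated errors were independent between E1 and E4, and only a small part of the genes was changed. These rates therefore do not cover the effect of the shared E0 libraries. The named genes are the members, up to 4 per pathway list with the smallest adjusted p and a mean count of at least 50, the 3 nearest genes, Fos and Arc. For the EGF and FGF ligands, the FGF receptors, the other receptor kinases and the adaptors, only part of these was named, by no set rule. Members and lists were chosen with earlier results of these data known. Marker lists also covered pyramidal and mossy cells (4 of 8 raised and 1 lowered in E1), oligodendrocytes (1 and 2 of 10), their precursors (0 of 5) and choroid plexus and meninges (1 and 1 of 7 tested). Promoters came from RefSeq (GRCm38.p6), and gene spans and exon lengths from GENCODE for GRCm38, another build than mm9, so no positions were mixed. Python 3.11.15, numpy 2.4.6, scipy 1.17.1 and pandas 2.3.3 were used. Alternatives covered thresholds, filters, centring, a minimum effect, left-out libraries and the SE of E4 against E1.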

Additional observations from a re-analysis of the deposited data

Results flagged for a closer look

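The change against E0 differed between E1 and E4 for 5 of the 7 genes with reads, by the test of the difference itself. For Spry2, Spry4, Spred1 and Errfi1 the log2 fold change was lower in E4, by -1.94, -1.58, -0.73 and -1.92 (E4 minus E1). For Spry1 it was higher, by 1.29. The mean of Spry1 in E4 was 212.2 normalised reads, beside 82.8 in E1 and 232 in E0. A fit of E4 against E1 on the reconstructed reads was chosen after seeing the data. It compared only the E1 and E4 reads of a gene, but its size factors and spread estimates rest on the E0 libraries too. The fit gave -1.96 for Spry2, -1.66 for Spry4, -0.74 for Spred1, -1.95 for Errfi1 and 1.38 for Spry1. With 3 libraries per group no search for single outlying libraries was made.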

How the results depend on the processing

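All 7 genes with reads were called in E1 and 4 in E4 at an adjusted p below 0.01, without a filter on low counts, over only those genes whose mean count reached 50, and after centring on the median gene. With an absolute log2 fold change above 0.5 the counts were 6 in E1 (Spred3, at 0.94, was lost) and 0 in E4, where Spry2 (0.62), Spred2 (0.99), Spred3 (0.64) and Errfi1 (0.51) were lost. With each library left out in turn the counts were 7 to 7 in E1 and 4 to 4 in E4. These refits kept the size factors, prior and spread estimates of the full comparison. A gene counted where its unadjusted p did not exceed the largest one called in full, 0.0178 in E1 and 0.0195 in E4. The 5 genes that differed between E4 and E1 did so under every alternative tried. Of 196 values of single genes under an alternative, 190 had the same direction and call, and Spred2 in E4 against E1, called in neither fit, went from -0.05 to 0.03 in the fit on reconstructed reads, which was chosen after seeing the data. The E0 level implied by the other table or by the reconstructed reads was within 1 SD in 14 of 14 cases. Both tables use the same E0 libraries and the reads were fitted to them, so this was largely built in. No paired analysis was possible because the reconstructed libraries carry no replicate number. The E1 libraries, at 1940000 to 4760000 reads, limit the low genes Spry1 and Spry4 most.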
